A study of Mus musculus with 12 samples.

Results

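Mast cell transcripts were followed in quadriceps RNA of 12 male dystrophic mice as 7 genes: the granule protease genes Cpa3, Cma1, Mcpt4 and Tpsb2 and the receptor genes Kit, Ms4a2 and Fcer1a. The genes were chosen by name, with earlier results of these data known. Each was measured by the single transcript cluster that the platform annotation pairs with that symbol alone, so all 7 were found, among 30412 clusters with exactly 1 symbol and 65587 in all. All mice were utrn+/-;mdx on a C57BL/10 background, that is, mutant for dystrophin and carrying a single functional copy of the utrophin gene, and were 6 weeks old. From 4 to 6 weeks of age, 3 mice received spironolactone at 100 mg/kg per day with lisinopril at 20 mg/kg per day in pellets. Another 3 received eplerenone at 200 mg/kg per day with lisinopril at 20 mg/kg per day in pellets, 3 received prednisolone at 1.5 mg/kg per day in drinking water, and 3 were untreated on normal chow. Spironolactone and eplerenone are steroidal antagonists of the mineralocorticoid receptor, lisinopril inhibits angiotensin-converting enzyme, and prednisolone is a glucocorticoid. Each mouse had its own array, with no healthy mice and no group on drug-free pellets among the samples.

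Mast cells are tissue-resident leukocytes that store proteases, heparin and histamine in granules and release them when IgE bound to its high-affinity receptor is cross-linked. They depend on the receptor tyrosine kinase Kit and its ligand, stem cell factor, for survival, and they have been described near fibre lesions in muscle of mdx mice. In mice, mast cells of connective tissue hold carboxypeptidase A3 (Cpa3), chymases (the products of Cma1 and Mcpt4) and the tryptase encoded by Tpsb2. Mast cells of mucosa are marked instead by Mcpt1 and Mcpt2. Quadriceps RNA comes from many cell types, so fewer mast cells and less RNA per mast cell cannot be told apart in these values.

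The protease genes and Kit varied together from mouse to mouse, as described further on. Kit had a promoter entry too, but its upstream sequence is not printed. The sequences upstream of the 3 protease genes with a promoter entry are shown. They are the 250 bases before the transcription start given by RefSeq on GRCm38.p6, all on the minus strand: chr3:20242182-20242431 for Cpa3, chr14:55944676-55944925 for Cma1 and chr14:56062311-56062560 for Mcpt4. Capitals mark matches to GATAA, the core that GATA factors such as GATA2 recognise, or to its reverse complement TTATC.
Cpa3: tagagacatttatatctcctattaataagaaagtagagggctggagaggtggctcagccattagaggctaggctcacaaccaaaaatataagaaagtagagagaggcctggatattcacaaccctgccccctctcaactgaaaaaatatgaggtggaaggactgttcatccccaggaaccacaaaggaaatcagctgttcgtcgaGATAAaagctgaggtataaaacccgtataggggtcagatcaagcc
Cma1: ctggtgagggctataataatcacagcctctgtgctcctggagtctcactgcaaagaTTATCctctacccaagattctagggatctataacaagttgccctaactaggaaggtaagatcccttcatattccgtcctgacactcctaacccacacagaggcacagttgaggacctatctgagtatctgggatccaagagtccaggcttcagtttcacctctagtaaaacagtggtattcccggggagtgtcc
Mcpt4: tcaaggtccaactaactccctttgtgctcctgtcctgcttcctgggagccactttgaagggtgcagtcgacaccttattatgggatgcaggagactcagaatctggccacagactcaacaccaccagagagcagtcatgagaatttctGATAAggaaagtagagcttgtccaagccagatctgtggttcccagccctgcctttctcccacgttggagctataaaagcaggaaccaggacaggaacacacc
The match in Cpa3 begins 45 bases before the start and that in Mcpt4 102 bases before it, both on the gene's strand, while that in Cma1 lies on the opposite strand, 194 bases before the start. In the same window, Kit held 0 matches from either of its 2 listed starts. Ms4a2 held 3 and Fcer1a 1, and over all arrays these genes correlated less with the proteases than Kit did. GATAA on either strand was present in 22.6% of the 32851 promoter windows of this length. The E-box CANNTG, searched on both strands, which match it at the same places, was found 2 times each in Cpa3 and Fcer1a, 1 time in Cma1 and not in the others. It was present in 66.2% of all windows. Of the 7 genes, 6 had a promoter entry, and Tpsb2 is named here without sequence. These matches describe letters in a window and were not tested as binding sites, nor was their part in the shared variation tested.

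None of the 7 mast cell genes passed an adjusted p of 0.05 in any of the 6 pairwise comparisons of the groups, nor in the test of any difference among the 4 groups (limma, Benjamini-Hochberg over 30412 clusters). The latter called 1.93% of all clusters. Unadjusted p fell under 0.05 in that test for Kit (0.0165) and Tpsb2 (0.0496), as it did for 19.6% of all clusters. The adjusted p in it was lowest for Kit (0.164) and was 0.254 for Tpsb2. Values below are the deposited log2 signals, on which a difference of 1 is a fold of 2. The group means and the 12 arrays are drawn gene by gene in the plot of signals by array.

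**Figure D1:**
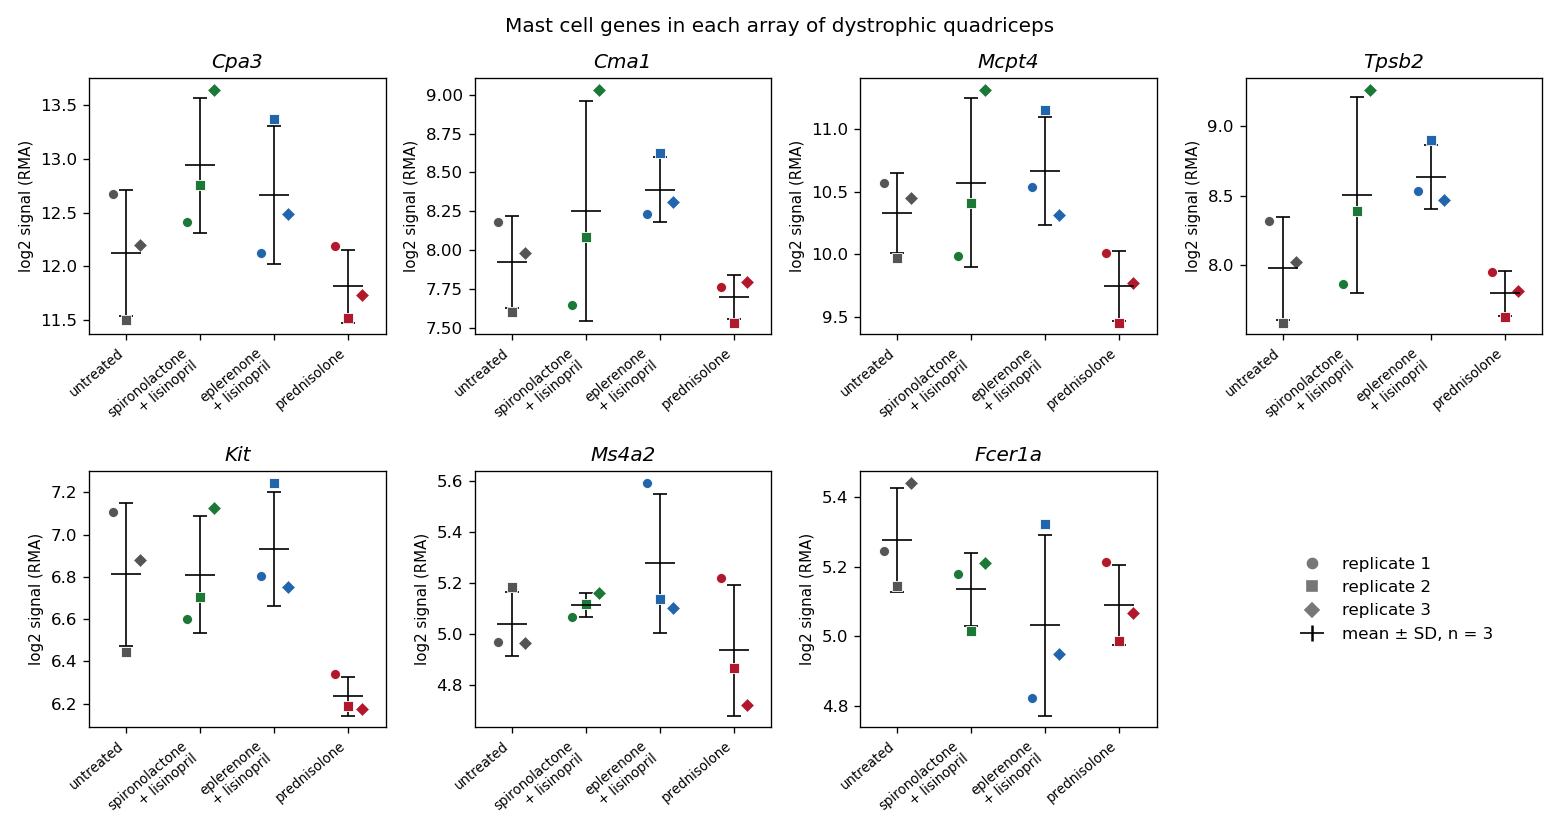
Each panel plots the log2 signal (y axis, its own range per gene) of a mast cell gene in the 12 arrays, grouped by treatment, with marker shape for the replicate and bars for the mean ± SD of 3 arrays. Replicate 3 of spironolactone plus lisinopril is the highest array for all 4 proteases (13.64 for Cpa3), and the prednisolone arrays lie lowest for Kit (6.18 to 6.34).

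Cpa3 (transcript cluster TC0300001704.mm.1) encodes carboxypeptidase A3, the metalloprotease of mast cell granules. Its log2 signal was 12.67, 11.50 and 12.20 in untreated replicates 1 to 3, 12.42, 12.76 and 13.64 with spironolactone plus lisinopril, 12.13, 13.37 and 12.49 with eplerenone plus lisinopril, and 12.19, 11.52 and 11.74 with prednisolone. The lowest array was untreated and the highest was in the spironolactone group, and only the spironolactone and prednisolone groups did not overlap. Ordered by mean, spironolactone plus lisinopril stood at 12.94 ± 0.63 (SD, n = 3), eplerenone plus lisinopril at 12.66 ± 0.64, untreated at 12.12 ± 0.59 and prednisolone at 11.81 ± 0.34. Each neighbour in this order overlapped the next, and the fitted difference of the extremes was 1.12 ± 0.40 (SE; limma adjusted p = 0.199).

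The chymase genes followed a similar order. Chymases are chymotrypsin-like serine proteases, and Mcpt4 is regarded as the counterpart in function of human chymase. Mcpt4 (TC1400002112.mm.1) signals were 10.57, 9.97 and 10.45 in untreated muscle, 9.99, 10.41 and 11.31 with spironolactone plus lisinopril, 10.54, 11.15 and 10.32 with eplerenone plus lisinopril, and 10.01, 9.45 and 9.77 with prednisolone. Every eplerenone array exceeded every prednisolone array, while untreated and prednisolone arrays overlapped by a narrow margin. Cma1 (TC1400002108.mm.1), the gene of the alpha-chymase, gave 8.18, 7.60 and 7.98 untreated, 7.64, 8.08 and 9.03 with spironolactone plus lisinopril, 8.23, 8.62 and 8.31 with eplerenone plus lisinopril, and 7.76, 7.53 and 7.80 with prednisolone. Its eplerenone arrays lay above all untreated and all prednisolone arrays, and its spironolactone arrays, from 7.64 to 9.03, overlapped those of every other group.

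Tpsb2 (TC1700000374.mm.1), the tryptase gene also known as Mcpt6, had signals of 8.32, 7.59 and 8.02 in untreated muscle, 7.87, 8.39 and 9.26 with spironolactone plus lisinopril, 8.53, 8.90 and 8.47 with eplerenone plus lisinopril, and 7.95, 7.63 and 7.82 with prednisolone. As for Cma1, the eplerenone arrays were above those of both the untreated and the prednisolone group. By mean, the order for Cma1, Mcpt4 and Tpsb2 was eplerenone plus lisinopril, spironolactone plus lisinopril, untreated and prednisolone. The 2 combinations differed from each other by less than the SD of the spironolactone group in all 3 genes.

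Kit (TC0500000710.mm.1), the receptor for stem cell factor, is also made by other cells such as melanocytes and some endothelial and progenitor cells. It measured 7.11, 6.45 and 6.88 in untreated muscle, 6.60, 6.70 and 7.12 with spironolactone plus lisinopril, 6.80, 7.24 and 6.75 with eplerenone plus lisinopril, and 6.34, 6.19 and 6.18 with prednisolone. All 3 prednisolone arrays lay below the other 9, a pattern found in 3.81% of all tested clusters and in no other of the 7 genes. The untreated mean was 6.81 ± 0.34 (SD, n = 3), those of the spironolactone and eplerenone groups were 6.81 ± 0.28 and 6.93 ± 0.27, and that of prednisolone was 6.24 ± 0.09.

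Fcer1a (TC0100003584.mm.1) and Ms4a2 (TC1900001139.mm.1) encode the alpha chain that binds IgE and the signal-amplifying beta chain of the high-affinity IgE receptor. Both had low signals, with means over the 12 arrays of 5.13 and 5.09, under the array medians of 5.70 to 5.81 over all tested clusters. Detection values were not used here, so how far these signals stood above background was not established. Ms4a2 ranged from 4.72 to 5.22 with prednisolone, 4.97 to 5.18 untreated, 5.07 to 5.16 with spironolactone plus lisinopril and 5.10 to 5.59 with eplerenone plus lisinopril. Fcer1a ranged from 4.99 to 5.21, 5.14 to 5.44, 5.02 to 5.21 and 4.82 to 5.32 in the same groups. The groups of both genes overlapped in all 6 comparisons, and their means differed between groups by at most 0.34 for Ms4a2 and 0.24 for Fcer1a.

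The comparison of prednisolone with no treatment asked whether a glucocorticoid, the standard drug class in Duchenne muscular dystrophy, was accompanied by other mast cell transcript levels. Kit differed by -0.58 ± 0.19 (SE; adjusted p = 0.104 by limma, 95% interval -0.999 to -0.154), a fold of 0.67. Mcpt4 differed by -0.58 ± 0.32 (adjusted p = 0.33). Cpa3, Cma1 and Tpsb2 stood at -0.31, -0.22 and -0.18, and Ms4a2 and Fcer1a at -0.10 and -0.19. None of the 7 passed, where 6.39% of all clusters did, and 1 of 7 (Kit) had an unadjusted p under 0.05, against 21.6% of all clusters. The median of the 7 was -0.22 and that of all clusters -0.01, and groups did not overlap for Kit alone, against 26.7% of all clusters. No member reached a fold of 2, as 1.69% of clusters did. A difference of 2-fold was not excluded by the intervals of Cpa3 (-1.19 to 0.57) or Mcpt4 (-1.30 to 0.13). The Cpa3 and Tpsb2 differences depended on untreated replicate 1: without it they were -0.04 and -0.0054, and Cma1 was at -0.09. Ms4a2 turned to 0.0030 without prednisolone replicate 3. Without untreated replicate 2, Kit had its lowest adjusted p of the 21 alternatives run, 0.0576, over a range up to 0.251.

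The combinations asked the same question for a mineralocorticoid receptor antagonist given with lisinopril. No group received lisinopril or an antagonist alone, so their parts cannot be told apart. With spironolactone plus lisinopril, Cpa3 was 0.82 ± 0.40 above untreated (SE; limma adjusted p = 0.333; interval -0.06 to 1.69) and Tpsb2 0.53 ± 0.30 (adjusted p = 0.397). Cma1 and Mcpt4 stood at 0.33 and 0.24, Ms4a2 at 0.07, Kit at -0.0022 and Fcer1a at -0.14. None of 7 passed (0.0822% of all clusters did), 0 had an unadjusted p under 0.05 (16.2% of clusters), 0 did not overlap (20.4%), 0 reached a fold of 2 (0.792%), and the median was 0.24 against -0.04 over all clusters. Without replicate 3 of the spironolactone group, Cma1 stood at -0.06 and Mcpt4 at -0.13, so the sign of both rested on that array, while Cpa3 stood at 0.46 and Tpsb2 at 0.15. With the array medians made equal, the near-zero value of Kit changed sign as well.

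With eplerenone plus lisinopril, Tpsb2 was 0.66 ± 0.30 above untreated (SE; limma adjusted p = 0.377; interval -0.0051 to 1.32) and Cma1 0.47 ± 0.29 (adjusted p = 0.504). For these 2 genes the groups did not overlap, as for 16.9% of all clusters. Cpa3 stood at 0.54, Mcpt4 at 0.34, Ms4a2 at 0.24, Kit at 0.12 and Fcer1a at -0.24. No member passed (0.0296% of all clusters did) and 0 of 7 had an unadjusted p under 0.05 (13.4% of clusters), and none reached a fold of 2 (0.654% did). The median was 0.34, against -0.03 over all clusters. Measured from untreated replicate 1 alone, Cpa3 was at -0.0075 and Tpsb2 at 0.31. Leaving out single arrays moved Cpa3 between 0.18 and 0.81. The 3 comparisons with untreated muscle share the untreated arrays, so their values are not independent of each other.

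**Figure D2:**
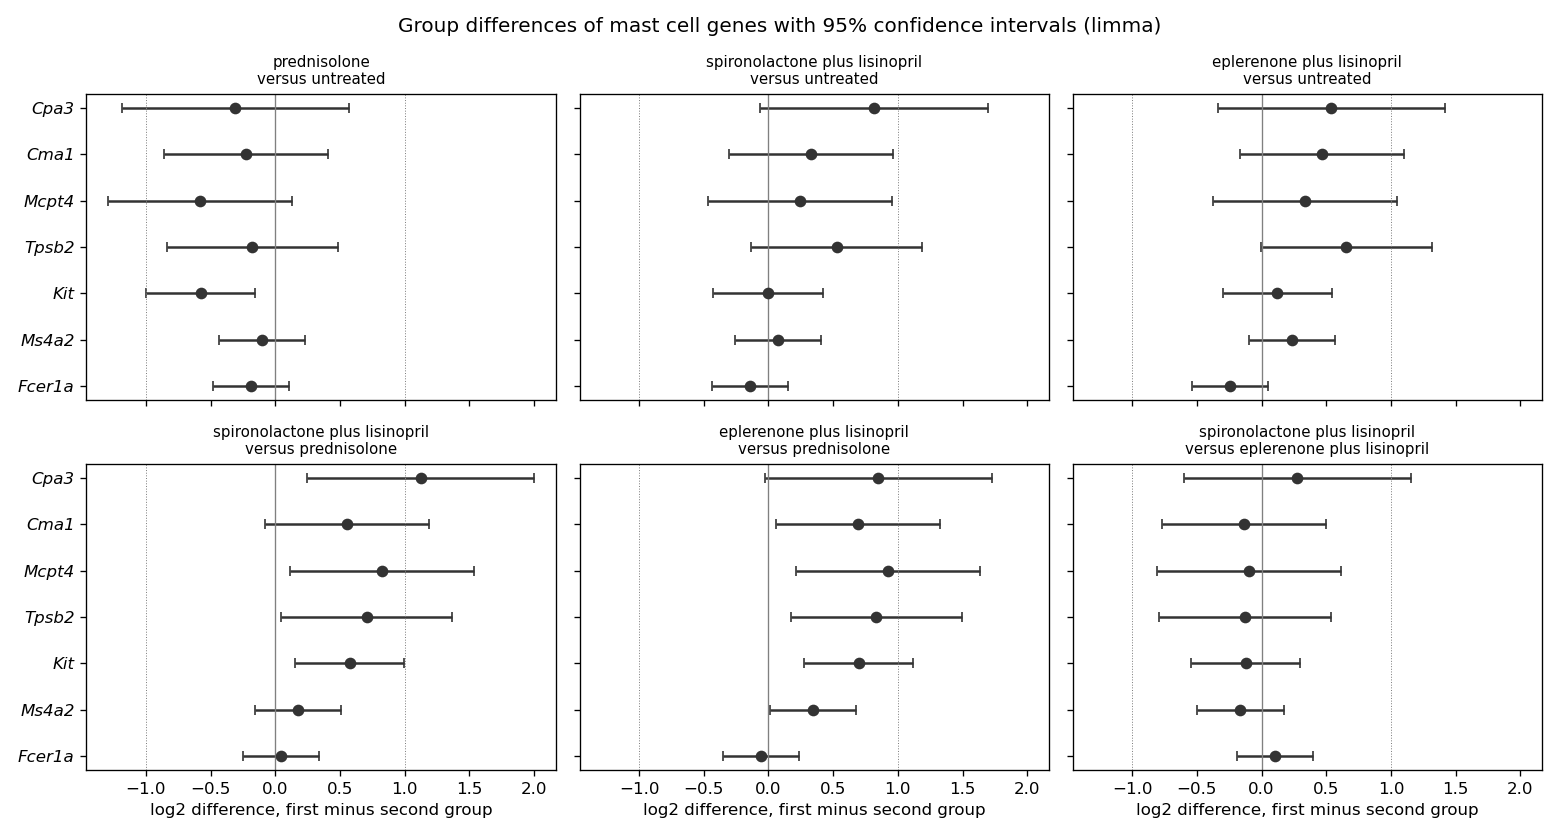
Points are log2 differences (x axis, first minus second group) of the 7 genes (y axis) in the 6 comparisons, with 95% confidence intervals from limma on 3 arrays per group. Dotted lines mark a fold of 2. In the panels against prednisolone most points lie to the right of 0, with Cpa3 at 1.12 and Mcpt4 at 0.92, and no adjusted p passed.

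Except for Fcer1a, the widest difference of each gene lay between a combination and prednisolone. These were different drugs, the combinations given in pellets and prednisolone in drinking water. The widest difference of Fcer1a was -0.24, with eplerenone plus lisinopril against untreated. Spironolactone plus lisinopril exceeded prednisolone by 1.12 ± 0.40 for Cpa3 (SE; limma adjusted p = 0.199), a fold of 2.18. This was the only member and comparison that reached the fold of 2 named by the study design, which 0.546% of clusters reached here. Mcpt4 differed by 0.83 ± 0.32 (adjusted p = 0.241), Tpsb2 by 0.71 ± 0.30 (adjusted p = 0.277) and Kit by 0.57 ± 0.19 (adjusted p = 0.178), while Cma1 stood at 0.56, Ms4a2 at 0.18 and Fcer1a at 0.05. Of the 7, 4 had an unadjusted p under 0.05 (16.3% of clusters did), 0 passed after adjustment (0.822% did), and 2 did not overlap between groups (24% did). The median was 0.57 against -0.04 over all clusters. Without spironolactone replicate 3 the values of Cpa3, Mcpt4, Tpsb2 and Cma1 were 0.77, 0.46, 0.33 and 0.17.

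Eplerenone plus lisinopril exceeded prednisolone by 0.92 ± 0.32 for Mcpt4 (SE; limma adjusted p = 0.261), 0.83 ± 0.30 for Tpsb2 (adjusted p = 0.275) and 0.70 ± 0.19 for Kit (adjusted p = 0.152). Cma1 differed by 0.69, Cpa3 by 0.85, Ms4a2 by 0.34 and Fcer1a by -0.06. The arrays of Mcpt4, Tpsb2, Cma1 and Kit did not overlap between these groups, 4 of 7 genes, as against 19.9% of all clusters. Unadjusted p was under 0.05 for 5 of 7 (12.5% of clusters) and none passed after adjustment (0.608% of clusters) or reached a fold of 2 (0.694%). The median was 0.70 against -0.01 over all clusters. Without eplerenone replicate 2, the highest array of its group for the proteases and Kit, Cpa3 stood at 0.49 and Mcpt4 at 0.68. Both comparisons share the prednisolone arrays.

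Spironolactone and eplerenone, which differ in that eplerenone carries an epoxide on the steroid rings and a methyl ester where spironolactone carries an acetylthio group, were given at different doses, 100 and 200 mg/kg per day. The group means are therefore set side by side: 12.94 and 12.66 for Cpa3, 8.25 and 8.39 for Cma1, 10.57 and 10.67 for Mcpt4, 8.51 and 8.63 for Tpsb2, and 6.81 and 6.93 for Kit. Ms4a2 had 5.11 and 5.28 and Fcer1a 5.14 and 5.03. The fit of these 2 groups called 0% of clusters and 0 of the 7 genes (limma; 0 of 7 and 4.49% of clusters at an unadjusted p under 0.05). All 7 genes overlapped between them, while 9.68% of clusters did not, and 0 of 7 reached a fold of 2, as 0.0822% did. Its widest interval was that of Cpa3, -0.60 to 1.15, so a 2-fold difference was not excluded.

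The protease genes and Kit moved together from mouse to mouse, within groups as well as across them. Over the 12 arrays Cma1 and Tpsb2 had Pearson r = 0.98 (Spearman 0.96), and Mcpt4 had 0.94 with Cma1, 0.93 with Tpsb2, 0.93 with Kit and 0.90 with Cpa3. All 10 pairs among these 5 genes lay between 0.82 and 0.98. For deviations from the group means the same pairs lay between 0.84 and 0.99. These are descriptions over 12 arrays that share labelling, normalization and tissue composition. Leaving out the 2 arrays farthest from the median of the first gene of a pair, mostly spironolactone replicate 3 and eplerenone replicate 2, the pairs ran from 0.69 (Cpa3 and Cma1) to 0.96 (Cma1 and Tpsb2).

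**Figure D3:**
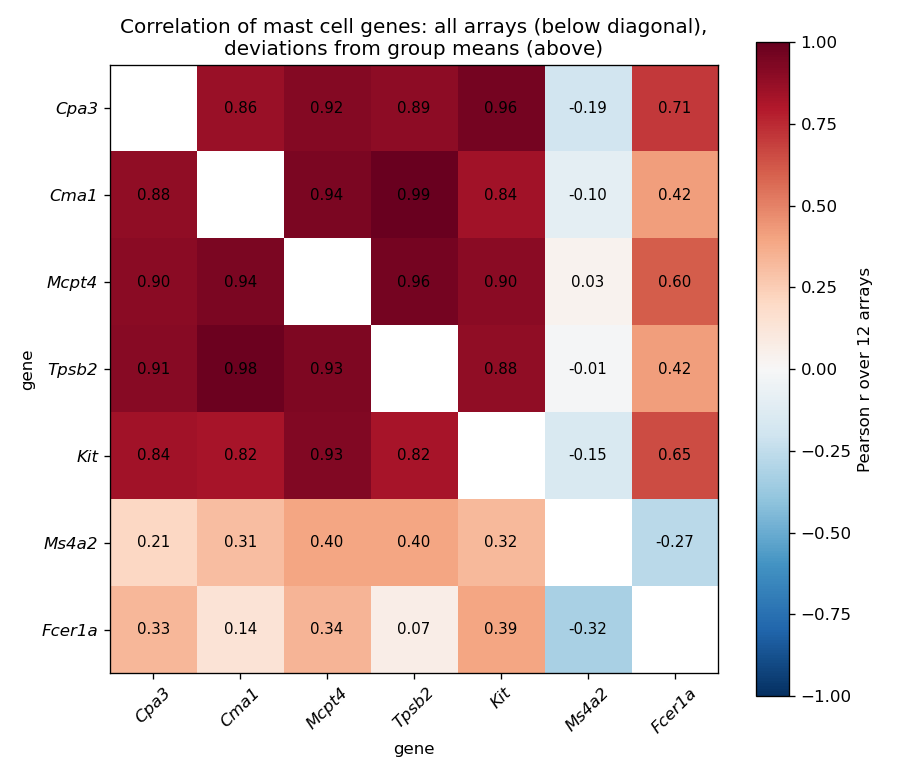
Each cell gives Pearson r over 12 arrays for a pair of genes (both axes), below the diagonal for the signals and above it for deviations from the group means. The block of Cpa3, Cma1, Mcpt4, Tpsb2 and Kit holds values of 0.82 to 0.99, and the rows and columns of Ms4a2 and Fcer1a hold lower ones below the diagonal.

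The mean deviation of these 5 genes from their own 12-array means ranked the mice within groups. It was 0.93 in spironolactone replicate 3 against -0.24 and 0.13 in replicates 1 and 2, and 0.72 in eplerenone replicate 2 against 0.10 and 0.13 in replicates 1 and 3. Among untreated mice it was 0.23, -0.52 and -0.03, and with prednisolone -0.29, -0.68 and -0.48. Each of the 5 genes was below its own mean in every prednisolone array and in untreated replicate 2, and above it in untreated replicate 1, spironolactone replicates 2 and 3 and eplerenone replicate 2. The prednisolone range overlapped that of the untreated group and did not overlap that of the eplerenone or the spironolactone group. It came close to the latter, with -0.29 in prednisolone replicate 1 and -0.24 in spironolactone replicate 1. Taken singly, Cma1, Mcpt4 and Tpsb2 overlapped between prednisolone and spironolactone, and Cpa3 between prednisolone and eplerenone. The 5 genes were grouped by their correlation in these same arrays, and no share over all clusters was computed, so this is a description.

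Of the IgE receptor genes, Ms4a2 did not share this pattern, and Fcer1a shared it in part, within groups. Ms4a2 had r of 0.21 to 0.40 with the 5 genes over all arrays and -0.19 to 0.03 within groups. Fcer1a had r of 0.07 to 0.39 over all arrays and 0.42 to 0.71 within groups, and the r between the 2 receptor genes was -0.32. Their signals were low and also varied less: the SD over 12 arrays was 0.21 and 0.17, against 0.67 for Cpa3 and 0.54 for Mcpt4. The part of the low signals in these values was not tested.

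The clusters most similar to Cpa3 over the 12 arrays were not mast cell genes. They were Gpc6, which encodes a glypican (r = 0.97), Cpq, which encodes a carboxypeptidase found in plasma (0.94), Mrvi1 (0.94), Mamld1 (0.94) and Cavin2, a caveolae gene (0.93). Tpsb2, Mcpt4 and Cma1 ranked 15, 20 and 29 of 30411 clusters for Cpa3, and 204 clusters had r above 0.8. For Mcpt4 the list was Cpq (0.95), Cma1 (0.94), Farp1 (0.94), Mxd4 (0.93) and Tpsb2 (0.93), with Kit at rank 6. Kit was most similar to the phosphatase genes Ptpn13 and Ptprm, to Zhx3 and Ubtd2 (all 0.96) and to the RNA sensor gene Tlr3 (0.95). Mcpt4 ranked 22 for Kit, while Cpa3, Cma1 and Tpsb2 ranked 227, 264 and 276, and 348 clusters had r above 0.8 with it. Kit in turn ranked 101 for Cpa3, 117 for Cma1 and 147 for Tpsb2.

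Marker lists of other cell types moved with these genes in part. The median deviation of 6 endothelial markers correlated with Kit (r = 0.91), Mcpt4 (0.80) and Cpa3 (0.78) over the 12 arrays, and that of 6 fibroblast markers with Kit (0.89), Mcpt4 (0.83) and Cpa3 (0.68). Endothelial deviations ran from -0.49 to -0.26 in the prednisolone arrays, from -0.11 to 0.36 with spironolactone plus lisinopril, from -0.12 to 0.59 with eplerenone plus lisinopril and from -0.47 to 0.51 untreated. Fibroblast deviations ran from -0.47 to -0.24 with prednisolone, the only group below 0 in every array, and from -0.12 to 0.26 in the other arrays. Under prednisolone the endothelial cadherin gene Cdh5 fell by 1.48 ± 0.26 against untreated (limma adjusted p = 0.0106), 1 of 6 endothelial markers past the threshold. Col1a1 fell by 0.66 ± 0.07 (adjusted p = 0.0021) and Col3a1 by 0.66 ± 0.10 (adjusted p = 0.0061), 2 of 6 fibroblast markers. In this comparison 3.17% of all clusters passed lower. In each of the 2 lists 4 of 6 markers were lower and 2 higher than untreated, the highest by 0.06 (endothelial) and 0.37 (fibroblast). The part of these cell types in the Kit and protease values was not tested.

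T cell markers also correlated with Kit (0.73) and Mcpt4 (0.58), and less with Cma1 (0.38), Tpsb2 (0.32) and Cpa3 (0.30). Their median deviations were -0.15, -0.15 and -0.14 in the prednisolone arrays, and 1 of 6 passed against untreated, Cd3e (-0.40 ± 0.09, limma adjusted p = 0.029). Of all clusters, 3.17% passed lower. The part of T cells was not tested either.

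Neutrophil and macrophage markers had negative correlations with Cpa3 and Mcpt4, and some of them were lower with prednisolone than in untreated muscle. Of 10 macrophage markers 3 passed lower, Cd14, Ly6c2 and Mrc1 (list median -0.68), as did 1 of 10 neutrophil markers, Retnlg, and 2 of 5 eosinophil markers, Ccr3 and Il5ra (limma). Against these counts, 3.17% of all clusters passed lower. Other markers were higher than untreated: 1 of 10 for macrophages, 4 of 10 for neutrophils and 2 of 5 for eosinophils. They were higher by at most 0.07, 0.83 and 0.15 in that order. Macrophage deviations were -0.32, -0.48 and -0.02 in the prednisolone arrays and 0.07, 0.78 and 0.41 in the untreated ones. The 10 neutrophil markers had median deviations of 1.05 and 1.60 in untreated replicates 2 and 3 and -0.22 in untreated replicate 1, which was the untreated array with the highest protease signals. Their r was -0.39 with Cpa3 and -0.18 with Mcpt4, and the 10 macrophage markers had -0.34 and -0.11. The 6 basophil markers, which include the basophil proteases Mcpt8 and Prss34, had deviations between -0.13 and 0.11 in all arrays, and 0 of 6 passed with prednisolone (0 of 6 at an unadjusted p under 0.05). The 5 measured eosinophil markers ranged from -0.24 to 0.36. The 10 muscle fibre markers, which include Acta1 and Ckm, had mean signals of 17.99 to 18.44, as the tissue label says, and deviations of -0.09 to 0.09.

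**Figure D4:**
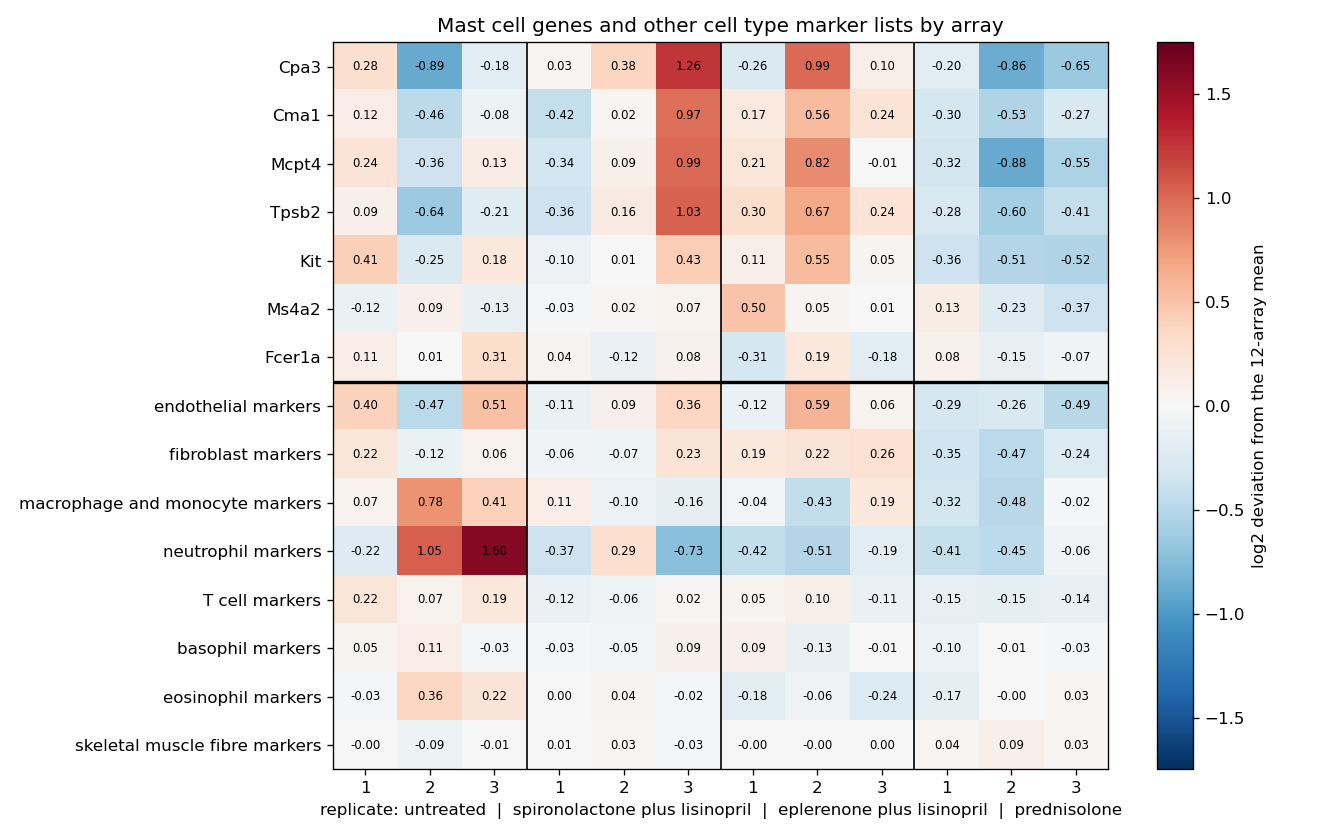
Colours and numbers give log2 deviations from the 12-array mean for the 7 genes (top rows) and median deviations of marker lists (bottom rows) in each array, ordered by group and replicate (x axis). The 4 proteases are highest in spironolactone replicate 3 (0.97 to 1.26), where neutrophil markers are at -0.73. The medians of the endothelial and fibroblast lists are below 0 in all 3 prednisolone arrays.

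The remaining genes of the mast cell pathway were read from lists that hold no member. Of 8 further granule protease genes, none passed in any comparison. The mucosal protease gene Mcpt2 had the smallest unadjusted p, between spironolactone and eplerenone (-0.28, limma adjusted p = 0.998). Mean signals of this list were 4.54 to 4.85 in the 12 arrays. Tpsab1, a tryptase gene of the same family as Tpsb2, ran from 3.98 to 4.37. Of 6 transcription factor genes, among them Mitf and Gata2, none passed, and Stat5b had the smallest p (0.40 higher with prednisolone than untreated, adjusted p = 0.16). Gata2 itself was at -0.09 in that comparison.

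Of the granule matrix and amine genes, Srgn and Hdc were lower with prednisolone than in untreated muscle. Srgn, which encodes the proteoglycan serglycin that binds proteases in granules of mast cells and many other leukocytes, had signals of 9.22, 9.96 and 9.61 untreated and 8.17, 8.32 and 8.24 with prednisolone. The groups did not overlap, and Srgn fell by 1.35 ± 0.16 (limma adjusted p = 0.0032), past the threshold in all 21 alternatives. Hdc, which encodes the histamine-forming enzyme, had 6.56, 8.92 and 8.07 untreated and 5.00, 5.10 and 4.84 with prednisolone, and fell by 2.87 ± 0.46 (limma adjusted p = 0.0068). Measured from untreated replicate 1 alone, Hdc was at -1.59. These were 2 of 5 genes of the list (list median -0.07), against 3.17% of all clusters lower, and Hdc is also made by neutrophils, whose markers were high in untreated replicates 2 and 3. Their part in this difference was not tested. Untreated replicate 2 had the highest Hdc and Srgn of the 12 arrays and the lowest Cpa3.

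Genes of IgE receptor signalling were lower with prednisolone in 2 of 11 cases (list median -0.54), where 3.17% of all clusters were. At an unadjusted p under 0.05 there were 8 of 11, against 21.6% of all clusters. Fcer1g, the shared gamma chain of Fc receptors, fell by 1.00 ± 0.25 (limma adjusted p = 0.0375) and the kinase gene Syk by 0.74 ± 0.16 (adjusted p = 0.0229). Both are made by macrophages and neutrophils as well, and 9 of 10 macrophage markers were negative in this comparison (list median -0.68; 3 of 10 past the threshold). The part of macrophages in these falls was not tested. Without untreated replicate 2, Fcer1g stood at -0.76 and Syk at -0.65, neither past the threshold. Each was also lost without untreated replicate 3 and without prednisolone replicate 1 or 2. Fcer1g passed in 11 and Syk in 15 of 21 alternatives. Against untreated replicate 1 alone they were at -0.58 and -0.41.

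Of 7 genes of growth factors and other surface receptors, 3 fell with prednisolone (list median -0.68), against 3.17% of all clusters. Il33, an alarmin that activates mast cells, fell by 2.30 ± 0.49 (limma adjusted p = 0.0217), Cd63, a granule membrane tetraspanin, by 0.68 ± 0.14 (adjusted p = 0.0207) and Cd9 by 0.73 ± 0.18 (adjusted p = 0.0393). Without untreated replicate 2 they were at -2.05, -0.55 and -0.53 and did not pass. None of the 3 passed without prednisolone replicate 1 or 2, nor Il33 and Cd9 without untreated replicate 3. Il33 measured from untreated replicate 1 alone was at -0.90. Of 21 alternatives, Il33 passed in 15, Cd63 in 16 and Cd9 in 10. Kitl, the Kit ligand, had 9.33, 9.39 and 10.34 untreated and 8.72, 8.82 and 8.74 with prednisolone, and the difference of -0.92 ± 0.26 did not pass (adjusted p = 0.0569). Kitl is named beside its receptor after its values were seen. Of 6 lipid mediator enzyme genes, 2 fell (list median -0.13; 3.17% of all clusters), the leukotriene gene Alox5ap by 1.44 ± 0.37 (adjusted p = 0.045) and the inducible cyclooxygenase gene Ptgs2 fell by 2.26 ± 0.53 (adjusted p = 0.0317). Alox5ap passed in 8 and Ptgs2 in 13 of 21 alternatives, and from untreated replicate 1 alone they were at -0.66 and -0.74. In the other 5 comparisons, no gene of the 6 lists passed the adjusted threshold.

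Several of these genes were also lower than in the same untreated arrays in the combination groups, without passing. For Hdc and Ptgs2 the sizes were near those with prednisolone. With spironolactone plus lisinopril Hdc stood at -2.54 (limma adjusted p = 0.084) and Ptgs2 at -2.47 (adjusted p = 0.136), and with eplerenone plus lisinopril they stood at -2.53 (adjusted p = 0.104) and -2.26 (adjusted p = 0.168). Srgn was at -0.65 and -1.09, Il33 at -1.23 and -1.47, and Syk at -0.57 and -0.68 in the same order. With prednisolone these 3 genes stood at -1.35, -2.30 and -0.74. For Hdc, Srgn and Ptgs2 both combination groups lay below the untreated arrays without overlap. Groups did not overlap, in either direction, for 20.4% of all clusters with spironolactone plus lisinopril and 16.9% with eplerenone plus lisinopril. Cd63 stood nearer to 0, at -0.09 and -0.32, and Kitl at 0.04 and -0.17. The 3 treated groups share the untreated arrays, and the differences are not particular to prednisolone by any test made here.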

How the data were processed

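Quadriceps RNA of 12 mice was hybridised to single-channel Affymetrix arrays after labelling with the GeneChip WT PLUS kit, per the labels' protocols. The authors deposited log2 signals. The submitters' processing notes name RMA and the Affymetrix Expression and Transcriptome Analysis Consoles, without version, annotation release or genome build. Between 1.27% and 1.34% of clusters per array exceed 16 on this log2 scale, which raw scanner intensities of that bit depth do not, so some rescaling is undescribed and a fold is a fold on this scale.

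Symbols came from the platform annotation, updated through gene IDs (827 changed), and repeats of a symbol within the annotation of a cluster counted once. The 30412 clusters carry 30084 distinct symbols, and clusters that share a symbol were all tested. Group means over all 12 arrays were fitted with limma 3.58.1 in R 4.3.3 (eBayes, two-sided) and adjusted by Benjamini-Hochberg over the 30412 clusters with exactly 1 symbol, at 0.05. Residual degrees of freedom were 8, and 2.94 were added by the prior. The number of arrays, 3 per group, limits the precision (median SE 0.13), and an exact permutation test of 3 against 3 cannot go below 0.1. The method was tested on simulated data.

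The genes, lists and alternatives were chosen with earlier results of these data known. Named from each list were genes past the threshold, or otherwise that with the smallest p, and the 5 clusters with the highest r for Cpa3, Mcpt4 and Kit. Listed genes without a cluster of exactly 1 symbol (Lyn, Il1rl1, Csf2rb, Ptgs1, Ear1, Ear2, Trac, Lck and Pdgfra) were not analysed. Replicates are mice labelled as biological replicates. The labels give replicate numbers but no shared litter or day. Alternatives were 2 other normalizations, a limit of 5 on mean signal, all 65587 clusters, a trended robust prior, array weights, only the groups compared, a replicate block, each array left out, and untreated replicate 1 alone, which is assumed to vary like the other groups.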

Additional observations from a re-analysis of the deposited data

How the results depend on the processing

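No gene of the 7 passed the adjusted threshold in any comparison under any of the 21 alternatives; the smallest adjusted p was 0.0576, for Kit with prednisolone against untreated, without untreated replicate 2. Of 42 pairs of gene and comparison, 14 had the other sign in at least 1 alternative, all of them pairs that did not pass. Between the scalings, quantile normalization turned no sign, and equal medians turned that of Kit with spironolactone plus lisinopril against untreated. The limit of 5 on mean signal kept all 7 genes. The labels do not say whether the replicate numbers pair the mice. Of 18 pairs of arrays with the same number in different groups, 4 had correlated deviations above 0.1 (median 0.02). Among pairs with different numbers it was 12 of 36 (median -0.01). These values cannot show whether mice shared a litter or day. With the replicate block, 0 of the 7 genes passed in every comparison, and prednisolone against untreated called 1452 clusters in place of 1942. Leaving out 1 array gave a count of 0 members in every case (lowest 0, highest 0). Over all clusters, that comparison called 146 from untreated replicate 1 alone and 584 with only its 2 groups fitted, 456 without prednisolone replicate 2, and 2643 without untreated replicate 1. Spironolactone and eplerenone against untreated called 25 and 9, 0 and 0 with only the groups compared, and 534 and 432 without untreated replicate 1. Against prednisolone they called 250 and 185, 23 and 27 without prednisolone replicate 2, and 990 and 380 with array weights. Averaging several clusters of a gene gave no value, since each of the 7 has 1. With only the 2 groups fitted, Hdc (adjusted p = 0.0535), Fcer1g, Syk, Il33, Cd63, Cd9, Alox5ap and Ptgs2 did not pass and Srgn did. The signals of Ms4a2 and Fcer1a were low, and how far they stood above background was not established.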
